A study of Mus musculus with 9 samples.

Results

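Histone genes encode the proteins around which DNA is wound. The genes described here were those whose Affymetrix probe set carried exactly 1 gene symbol, and that symbol begins with H1f, H2ac, H2bc, H3c or H4c and a digit or with the older Hist1h to Hist4h. The rule found 30 of the 19938 genes measured by a probe set of their own, each through 1 probe set: 8 linker histone H1 genes, 4 H2A, 9 H2B, 3 H3 and 6 H4 genes. Of the 70 mouse genes whose names meet the rule in the RefSeq gene table (GRCm38.p6), 67 of them protein coding, the 30 were matched by gene ID. Of the 30, 23 lie on chromosome 13 and 4 on chromosome 3.

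The 9 arrays came from spleen CD4 T cells of C57BL/6J mice, 3 arrays, called biological replicates in the labels, for each of 3 groups. The CD69-activated group was wild-type cells that received an anti-CD69 antibody 24 h into the culture and a secondary cross-linking antibody at 48 h, each diluted 1 in 200. The other groups were cells of CD69-/- mice and untreated wild-type cells, and all 3 groups were grown for 72 h with beads that carry anti-CD3 and anti-CD28, at 10 cells per bead. CD69 is a membrane protein that T cells display soon after activation. The sources used here do not say whether both wild-type groups came from the same mice, whether the CD69-/- mice were littermates, or whether a control antibody was used.

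The core histones H2A, H2B, H3 and H4 form the nucleosome, and linker histone H1 binds the DNA between nucleosomes. Most of these genes are replication dependent: they are transcribed in S phase under the coactivator NPAT, and their messengers end in a stem-loop bound by SLBP instead of a poly(A) tail. T cells stimulated through CD3 and CD28 enter the cell cycle and have to make histones with each round of DNA replication. The arrays were labelled with a whole-transcript assay, which primes along the RNA and does not need a poly(A) tail.

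Cd69, the deleted gene, had log2 RMA values of 9.65, 9.49 and 9.63 in CD69-/- arrays and 12.03, 12.12 and 12.37 in wild-type arrays, a log2 difference of -2.58 (limma, adjusted p = 1.22e-08). In CD69-activated arrays it had 11.80, 11.84 and 11.74, also below wild type. The CD69-/- arrays had a male pattern (Eif2s3y at 9.68 to 9.85) and the others a female one (4.30 to 4.41), so sex and genotype cannot be told apart. Although labelled CD4 T cells, all arrays held bright B cell markers: Ms4a1, which encodes CD20, was 12.69 to 12.71 in CD69-activated, 12.29 to 12.38 in CD69-/- and 12.77 to 12.91 in wild-type arrays, while the T cell marker Cd4 was 12.02 to 12.09 in CD69-activated, 12.31 to 12.39 in CD69-/- and 11.92 to 12.02 in wild-type arrays. In CD69-/- arrays 15 of 15 B cell markers were lower than in wild type (summed linear level 57034 to 60781, against 78257 to 81682), 12 of 16 myeloid and 4 of 7 erythroid markers were lower, 10 of 10 CD4 and 2 of 2 CD8 T cell markers were higher, and of 10 NK cell markers 3 were higher and 4 lower. In CD69-activated arrays 8 of 10 NK cell markers (summed level 3394 to 3636, against 5358 to 5638) and 2 of 2 CD8 T cell markers (5785 to 6626, against 7805 to 7934) were lower than in wild type, 2 of 10 CD4 markers were lower, and of the B cell markers 3 were higher and 3 lower (76847 to 79316, against 78257 to 81682). Of the 16 myeloid markers 4 were higher and 4 lower there, with log2 differences between -0.78 and 0.85, and of the 7 erythroid markers 1 was higher and 1 lower. Over all genes 6.78% were lower and 8.36% higher in CD69-/- arrays, and 13.7% lower and 10.1% higher in CD69-activated arrays. The CD4, B cell and erythroid counts in CD69-activated arrays are near those shares. The part of these marker shifts in the histone gene values below was not tested. In such bulk samples fewer cells of a type and less RNA per cell cannot be told apart.

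Histone genes were called lower more often than higher in CD69-activated cells. Against wild type, 14 of the 30 were lower, 2 were higher and 14 did not pass the test, where 13.7% of all genes tested were lower and 10.1% were higher. The fit was limma's moderated test over all 9 arrays, and a gene was called where its p-value, Benjamini-Hochberg adjusted across the 19938 genes, was under 0.05. The lower calls came from every class (2 H1, 2 H2A, 5 H2B, 1 H3 and 4 H4 genes), and both higher calls were H1 genes, H1f2 and H1f7. The median log2 difference of the 30 was -0.14, beside 0.017 over all genes. NK and CD8 T cell markers were lower and myeloid markers moved both ways in the same arrays, as given above. In CD69-/- cells 6 of the 30 (3 H1 genes and 1 each of H2B, H3 and H4) were lower than in wild type and none was higher (1, H2bc3, at an unadjusted p under 0.05 by limma), where 6.78% of all genes were lower and 8.36% were higher; the median log2 difference was -0.07, beside -0.0091 over all genes. That median was -0.12 without wild-type replicate 1 and -0.04 with each array centred on its median. Both comparisons use the same 3 wild-type arrays.

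**Figure D1:**
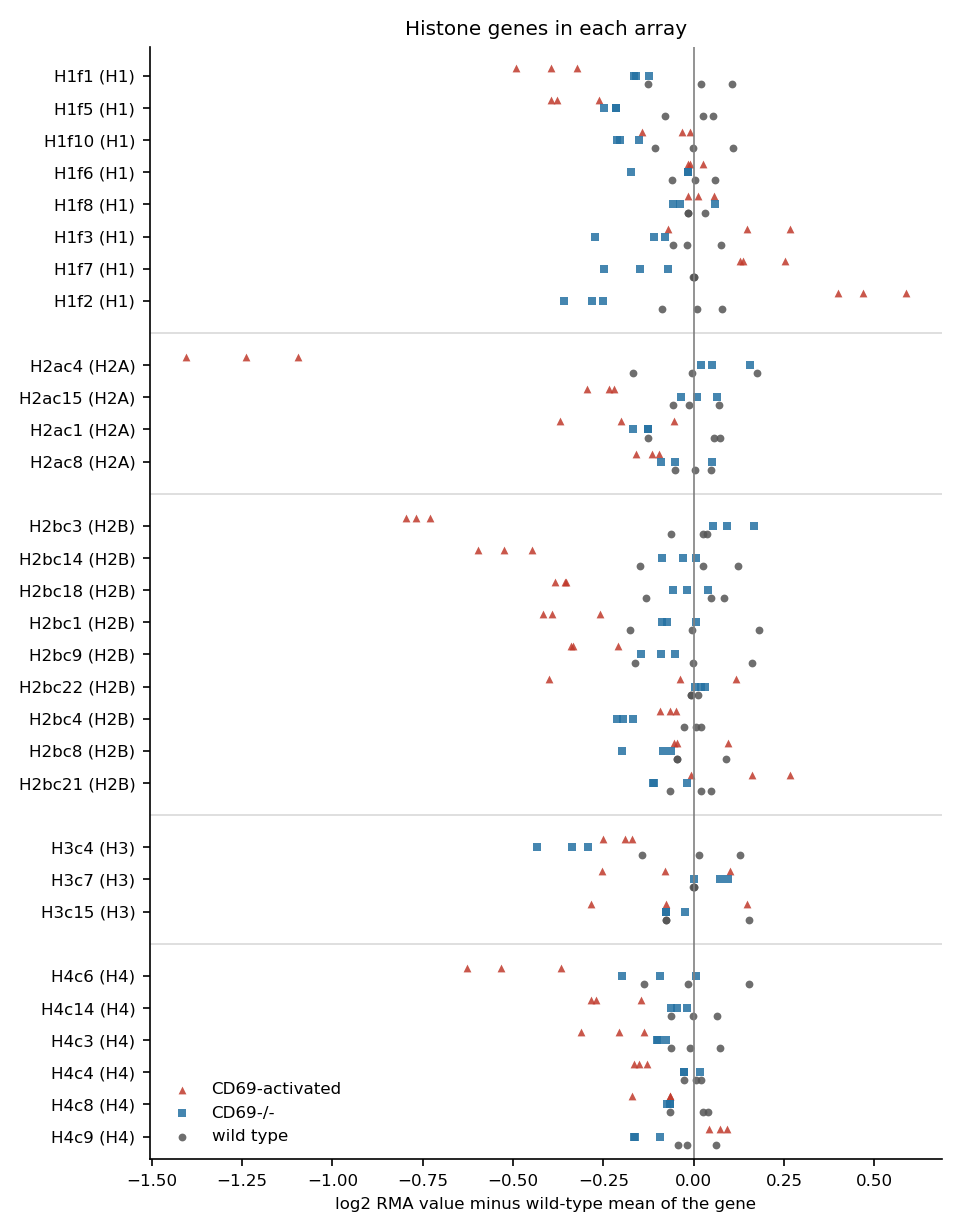
Each row is a histone gene, grouped by class; points are single arrays, and the x axis is the deposited log2 RMA value minus the gene's mean in wild type. CD69-activated arrays (triangles) lie to the left for most H2A, H2B and H4 genes, furthest for H2ac4 and H2bc3, and to the right for H1f2; CD69-/- arrays (squares) lie to the left for H1f2, H1f5, H2bc4 and H3c4.

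The promoters of 26 of the 30 genes were found in the RefSeq promoter table (GRCm38.p6), as windows from 250 bases before to 50 after the gene's start. The octamer ATTTGCAT, the element that OCT1 binds in H2B promoters, stood on either strand in 8 of the 26 windows (30.8%), against 1.74% of all 32851 windows. It was in 3 of 4 H2A and 5 of 7 H2B windows and in no H1, H3 or H4 window. The windows of H2ac1 and H2bc1, which face away from each other, share 220 bases, and those of H2ac8 and H2bc8 share 279, so each of these pairs holds the same octamer once. The motif CCAAT was in 21 of 26 windows (80.8%, against 37.4% of all windows) and TATAAA in 15 (57.7%, against 13.6%). The E2F motif TTTGGCGC was in none of the 26 and in 0.514% of all windows. A match is only a run of letters, not a bound site.

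The 150 bases before the start are printed for 7 genes described below, with the octamer, CCAAT and TATAAA matches in capitals on whichever strand they were found, 5′ to 3′ on the gene's own strand. The first 4 are those of the 5 octamer genes called lower in CD69-activated cells that hold the octamer within these bases; in the other, H2bc1, it begins 164 bases before the start. The 4 lie at chr13:23750938-23751087 (plus strand), chr13:23746584-23746733 (plus strand), chr13:21721894-21722043 (plus strand) and chr3:96269550-96269699 (plus strand). The octamer lies 129, 90, 25 and 48 bases before the start in this order, and in H2ac4 it is on the opposite strand.
H2ac4: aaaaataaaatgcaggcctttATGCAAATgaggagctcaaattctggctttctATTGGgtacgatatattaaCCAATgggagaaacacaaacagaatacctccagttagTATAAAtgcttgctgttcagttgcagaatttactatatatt
H2bc3: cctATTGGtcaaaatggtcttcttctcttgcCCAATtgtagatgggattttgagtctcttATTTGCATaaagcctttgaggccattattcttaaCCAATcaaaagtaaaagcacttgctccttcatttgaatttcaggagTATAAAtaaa
H2bc14: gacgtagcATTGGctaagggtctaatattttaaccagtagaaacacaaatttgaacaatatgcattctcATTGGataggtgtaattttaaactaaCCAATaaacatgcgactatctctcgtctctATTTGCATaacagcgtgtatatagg
H2bc18: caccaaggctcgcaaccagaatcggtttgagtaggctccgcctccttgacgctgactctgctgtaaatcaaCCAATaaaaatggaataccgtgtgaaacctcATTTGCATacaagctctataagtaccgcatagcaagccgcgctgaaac

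The next 3 are the linker histone genes with the largest differences in CD69-activated cells, none of which holds the octamer, at chr13:23738657-23738806 (plus strand), chr13:23763518-23763667 (plus strand) and chr13:21780626-21780775 (minus strand). All 3 hold a CCAAT between 53 and 56 bases before the start, and H1f1 and H1f5 also hold TATAAA, which H1f2, the gene with the opposite direction in CD69-activated cells, does not have in these letters.
H1f2: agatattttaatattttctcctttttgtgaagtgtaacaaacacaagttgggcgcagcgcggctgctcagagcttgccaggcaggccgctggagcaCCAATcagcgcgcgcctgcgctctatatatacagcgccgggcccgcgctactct
H1f1: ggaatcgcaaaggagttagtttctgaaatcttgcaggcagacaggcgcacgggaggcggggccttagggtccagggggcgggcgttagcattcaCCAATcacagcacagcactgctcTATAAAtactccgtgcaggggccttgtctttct
H1f5: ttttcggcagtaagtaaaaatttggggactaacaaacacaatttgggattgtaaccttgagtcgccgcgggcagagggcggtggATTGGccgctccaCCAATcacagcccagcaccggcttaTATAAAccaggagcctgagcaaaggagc

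Of the 8 genes with the octamer 5 were lower and none was higher in CD69-activated cells than in wild type, with a median log2 difference of -0.36. Of the 18 without it 8 were lower and 2 higher, with a median of -0.10. The octamer was only in H2A and H2B windows and both higher genes were H1 genes, so this split also follows class. Of the H2A and H2B genes without it, H2ac15 (-0.25) and H2bc9 (-0.29) were lower and H2bc22 (-0.11) was not called. The other motifs gave splits in the same direction: 9 of the 15 genes with TATAAA were lower and none was higher (median -0.21), against 4 lower and 2 higher of the 11 without it (-0.07), and 12 of the 21 with CCAAT were lower and 1 higher (-0.21), against 1 lower and 1 higher of the 5 without it (-0.06). These are counts over few genes, with shared windows among them, and no test was made. H1f2, H3c3, H2ac5-ps, H2bc3 and H2ac4 follow each other in the RefSeq gene order of chromosome 13, so the gene with the highest difference among the 30 stands a few genes from those with the lowest. H3c3 and H2ac5-ps had no probe set of their own.

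Levels below are log2 RMA values, and differences are differences of log2 group means with the standard error of the limma fit. A level belongs to its probe set, so brightest and dimmest describe probe sets and not amounts of RNA.

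Among the linker histones, H1f2, a somatic H1 gene, had the largest difference from wild type in both comparisons, with opposite signs. Its level was 11.11, 11.23 and 11.04 in CD69-activated arrays, 10.39, 10.28 and 10.36 in CD69-/- arrays and 10.55, 10.65 and 10.72 in wild-type arrays. All CD69-activated arrays were above all wild-type arrays, and all CD69-/- arrays were below them. The log2 difference was 0.48 ± 0.0574 (SE, n = 3 each) for CD69-activated minus wild type (limma, adjusted p = 0.000142; 1.40-fold higher), and -0.30 ± 0.0574 for CD69-/- minus wild type (limma, adjusted p = 0.00445).

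H1f5 and H1f1, other somatic H1 genes, were lower in CD69-activated cells. H1f5 had 10.59, 10.47 and 10.46 in CD69-activated arrays, 10.60, 10.63 and 10.64 in CD69-/- arrays and 10.77, 10.88 and 10.90 in wild-type arrays. The wild-type arrays were the highest and did not overlap with either of the other groups. H1f5 differed from wild type by -0.34 ± 0.0475 in CD69-activated cells (limma, adjusted p = 0.000386) and by -0.23 ± 0.0475 in CD69-/- cells (adjusted p = 0.00742). H1f1 had 9.70, 9.77 and 9.60 in CD69-activated arrays, 9.93, 9.93 and 9.97 in CD69-/- arrays and 9.97, 10.20 and 10.11 in wild-type arrays. Only the CD69-activated arrays stood apart for H1f1, with a log2 difference from wild type of -0.40 ± 0.0601 (limma, adjusted p = 0.000653), while the CD69-/- difference of -0.15 did not pass the test (adjusted p = 0.133).

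H1f7, a linker histone of the testis, was the other gene called higher in CD69-activated cells, by 0.17 ± 0.0502 (limma, adjusted p = 0.0289); it lies outside the naming rule and is named here because only 2 genes were higher. Its call was lost under cyclic loess, in a fit of all probe sets and without wild-type replicate 1, 2 or 3 or CD69-activated replicate 3. Each of these left 1 gene higher. Without CD69-activated replicate 1 there were 3, with H2bc21 added. H1f10, the replication-independent H1X, had 7.67, 7.54 and 7.65 in CD69-activated arrays, 7.48, 7.47 and 7.53 in CD69-/- arrays and 7.79, 7.68 and 7.57 in wild-type arrays. The CD69-/- arrays were below all others, at a difference from wild type of -0.19 ± 0.0564 (limma, adjusted p = 0.0446). The call was lost without CD69-/- replicate 1, 2 or 3, wild-type replicate 1 or 2 or CD69-activated replicate 3. Centring each array on its median, cyclic loess, the 6 compared arrays alone, the replicate block and a fit of all probe sets lost it too. Over all 19 alternative settings the limma adjusted p reached up to 0.149, and the difference ran from -0.24 to -0.14. H1f8, the oocyte linker histone and the dimmest of the H1 probe sets, differed by 0.02 in CD69-activated and by -0.01 in CD69-/- cells.

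**Figure D2:**
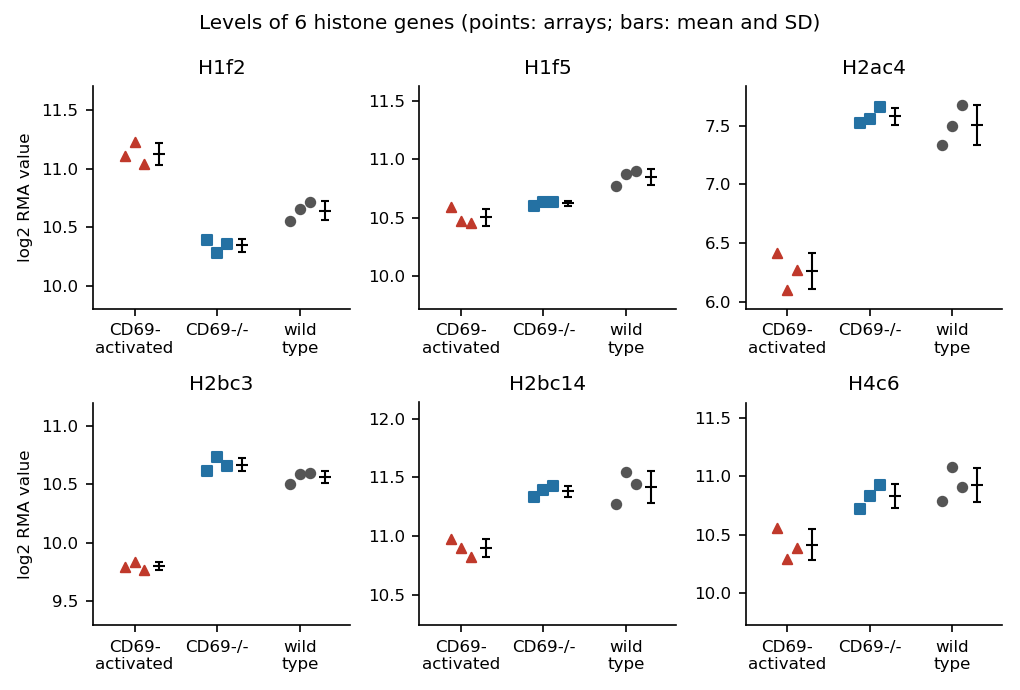
Log2 RMA values of 6 histone genes in each array, with the mean and SD of each group; each panel has its own level on the y axis but the same span. In CD69-activated cells H1f2 is above wild type and the other 5 genes are below, with H2ac4 at 6.10 to 6.41 against 7.34 to 7.68; H1f2 and H1f5 are also below wild type in CD69-/- cells.

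The core histone H2A gene H2ac4 had the largest difference of the 30. Its level was 6.41, 6.10 and 6.27 in CD69-activated arrays, 7.53, 7.56 and 7.66 in CD69-/- arrays and 7.34, 7.50 and 7.68 in wild-type arrays. The CD69-activated arrays lay far below all others, and the CD69-/- and wild-type arrays overlapped. H2ac4 was 2.37-fold lower in CD69-activated cells than in wild type, a log2 difference of -1.25 ± 0.0906 (SE, n = 3 each; limma, adjusted p = 5.05e-06), while in CD69-/- cells it differed by 0.08 (95% interval -0.12 to 0.28, adjusted p = 0.656).

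H2ac15, another core H2A gene, had 12.56, 12.48 and 12.54 in CD69-activated arrays, 12.75, 12.79 and 12.84 in CD69-/- arrays and 12.72, 12.85 and 12.77 in wild-type arrays. Again only the CD69-activated arrays stood apart, at a difference of -0.25 ± 0.0441 (limma, adjusted p = 0.0019). The other H2A genes, H2ac1, which encodes a testis H2A, and H2ac8, differed by -0.21 (adjusted p = 0.0667) and -0.12 (adjusted p = 0.0713) and did not pass the test. The H2ac8 probe set, the dimmest of the H2A genes at 4.43 to 4.64 over the 9 arrays, comes without a detection call, and whether it was above background is unknown.

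Core H2B genes gave 5 of the 14 lower calls. H2bc3 had 9.80, 9.83 and 9.77 in CD69-activated arrays, 10.62, 10.73 and 10.66 in CD69-/- arrays and 10.50, 10.59 and 10.60 in wild-type arrays. It was 1.70-fold lower in CD69-activated cells than in wild type, with no overlap between the arrays (-0.76 ± 0.0432; limma, adjusted p = 8.19e-07). All 3 CD69-/- arrays were slightly above all wild-type arrays, but the difference of 0.10 did not pass the test (adjusted p = 0.144).

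H2bc14, the brightest H2B probe set, had 10.97, 10.90 and 10.82 in CD69-activated arrays, 11.33, 11.39 and 11.43 in CD69-/- arrays and 11.27, 11.54 and 11.45 in wild-type arrays. H2bc18 had 8.82, 8.82 and 8.79 in CD69-activated arrays, 9.16, 9.12 and 9.21 in CD69-/- arrays and 9.04, 9.26 and 9.22 in wild-type arrays. For both genes every CD69-activated array was below all other arrays, and the CD69-/- values lay within the wild-type range. The differences from wild type in CD69-activated cells were -0.52 ± 0.0654 for H2bc14 (limma, adjusted p = 0.000206) and -0.36 ± 0.0546 for H2bc18 (limma, adjusted p = 0.00067). The remaining lower H2B calls were H2bc1, a testis H2B (-0.36), and H2bc9 (-0.29), which the naming rule did not pick.

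H2bc4 was the only H2B gene lower in CD69-/- cells. It had 10.27, 10.26 and 10.23 in CD69-activated arrays, 10.13, 10.11 and 10.15 in CD69-/- arrays and 10.34, 10.33 and 10.30 in wild-type arrays. The 3 groups did not overlap, although the differences were small. The CD69-/- difference from wild type was -0.19 ± 0.0339 (limma, adjusted p = 0.0025), and the CD69-activated difference of -0.07 did not pass the test (adjusted p = 0.172). H2bc22, the dimmest H2B probe set, spread over 6.42 to 6.94 among CD69-activated arrays alone and was not called in any comparison.

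Of the 3 H3 genes with a probe set of their own only H3c4 was called against wild type. H3c4 had 7.67, 7.65 and 7.59 in CD69-activated arrays, 7.50, 7.41 and 7.55 in CD69-/- arrays and 7.70, 7.86 and 7.97 in wild-type arrays. It was lowest in CD69-/- cells and highest in wild type, without overlap. The difference from wild type was -0.35 ± 0.0643 in CD69-/- cells (limma, adjusted p = 0.003) and -0.20 ± 0.0643 in CD69-activated cells (limma, adjusted p = 0.0405). The second call was lost without any 1 of wild-type replicates 2 and 3, CD69-/- replicates 1 and 3 and the 3 CD69-activated replicates. It was also lost with the 6 compared arrays alone, array weights, the replicate block and all probe sets in the fit. Over all 19 alternative settings the limma adjusted p reached up to 0.142. H3c7, the dimmest of the H3 probe sets, differed by -0.08 in CD69-activated and 0.06 in CD69-/- cells and was not called.

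H4c6 led the 4 lower H4 genes in CD69-activated cells. Its level was 10.56, 10.30 and 10.39 in CD69-activated arrays, 10.72, 10.83 and 10.93 in CD69-/- arrays and 10.79, 11.08 and 10.91 in wild-type arrays. The CD69-activated arrays were below all others, by -0.51 ± 0.0837 against wild type (limma, adjusted p = 0.00126; 1.42-fold lower). H4c14 (-0.23), H4c3 (-0.22) and H4c4 (-0.15), the brightest H4 probe set, were also lower, with adjusted p-values of 0.00435, 0.00859 and 0.00843 (limma). H4c8, the dimmest, differed by -0.10 (adjusted p = 0.115). In CD69-/- cells H4c9 was the only H4 gene called.

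H4c9 had 8.42, 8.43 and 8.39 in CD69-activated arrays, 8.18, 8.18 and 8.25 in CD69-/- arrays and 8.30, 8.40 and 8.32 in wild-type arrays. The CD69-/- arrays were the lowest and did not overlap with the others. Its difference from wild type in CD69-/- cells was -0.14 ± 0.0401 (limma, adjusted p = 0.0385), and in CD69-activated cells 0.07 (adjusted p = 0.25). The CD69-/- call was lost without CD69-/- replicate 1 or 2 or wild-type replicate 2 or 3. Centring each array on its median, the 6 compared arrays alone, the robust variance prior, the replicate block and a fit of all probe sets lost it too. Of the 6 lower calls in CD69-/- cells H1f2, H1f5, H2bc4 and H3c4 kept theirs under each of 19 alternative settings, and H1f10 and H4c9 did not. The members not yet given, H1f3, H1f6, H2bc8, H2bc21 and H3c15, were not called against wild type, with log2 differences between -0.07 and 0.14 in CD69-activated cells.

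Many histone genes of a class are so alike in sequence that the array annotation gives them a common probe set. These 26 shared probe sets, which list between 2 and 20 symbols each, lie outside the rule and were examined beside it in a fit of all 35556 probe sets, chosen after seeing the data. In CD69-activated cells 25 of the 26 were lower than in wild type and none was higher, where 9.47% of all probe sets were lower. Most of the 26 are bright, and in the fit of genes 24.6% of those above the median level of all genes were lower. By class the counts were 2 of 2 H2A sets (median log2 difference -0.21), 7 of 7 H2B (-0.28), 10 of 10 H3 (-0.30) and 6 of 6 H4 (-0.14), and the set listed for H2bc6 and H1f4 was not called (-0.06, adjusted p = 0.325). Sets of a class list nearly the same genes, so they are repeated readings of common transcripts and not independent results. Among them 2 H2B sets had identical values in every array, as did 2 H4 sets.

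The median of the 10 H3 sets was 13.19, 13.17 and 13.21 in CD69-activated arrays, 13.47, 13.52 and 13.49 in CD69-/- arrays and 13.51, 13.52 and 13.46 in wild-type arrays. The CD69-activated arrays lay below all others, and the CD69-/- arrays overlapped with the wild-type arrays. The median of the 7 H2B sets was 12.83, 12.77 and 12.79 in CD69-activated arrays, 13.00, 13.07 and 13.09 in CD69-/- arrays and 13.01, 13.16 and 13.13 in wild-type arrays, with the same arrangement. In CD69-/- cells none of the 26 was called in either direction, by the adjusted p or at an unadjusted p under 0.05, where 3.80% of all probe sets were lower. Against CD69-/- cells 24 of the 26 were lower in CD69-activated cells, where 15.5% of all probe sets were lower. In the fit of genes, 3787 of the 9969 above the median level of all genes were lower in that comparison.

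H3c4 is also listed in both shared H2A sets. The symbols H2ac4, H2ac8, H2ac15, H2bc1, H2bc3, H2bc4, H2bc8, H2bc9, H2bc14 and H2bc22 recur in shared sets of their class. So do H3c4, H3c7, H3c15, H4c3, H4c4, H4c6, H4c8 and H4c9. Of all these symbols, H2bc4, H3c4 and H4c9 were called lower in CD69-/- cells. The shared H2B, H3 and H4 sets, none of them called there, had median log2 differences of -0.05, 0.0019 and -0.03. How much of a member's signal came from such relatives was not tested, and the values of single members are uncertain to that extent.

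**Figure D3:**
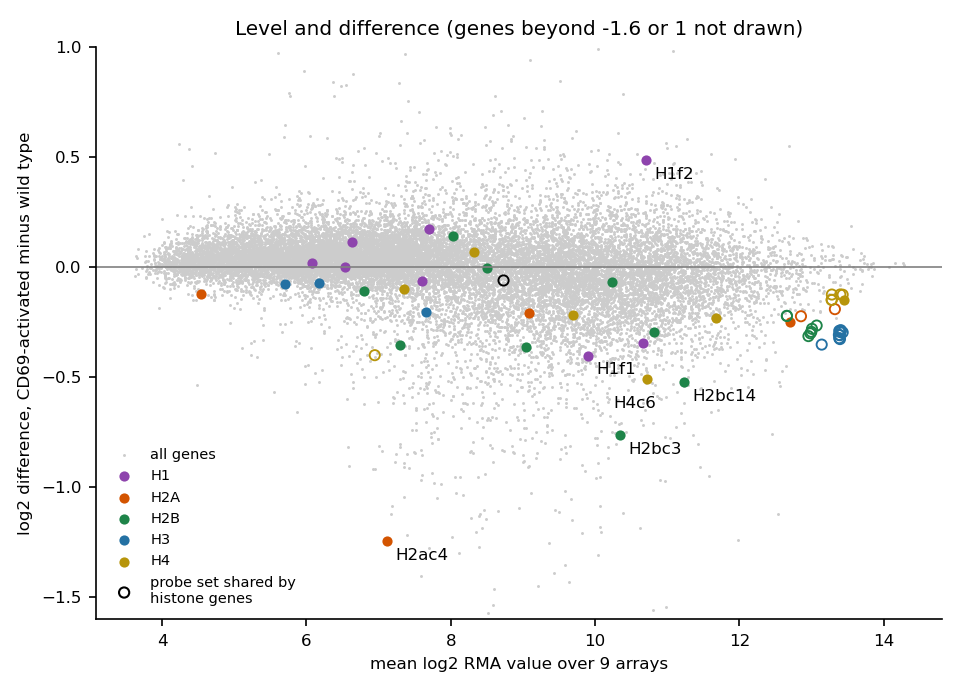
Difference between CD69-activated and wild-type cells (log2) against the mean log2 RMA value over the 9 arrays, for all genes (grey), the 30 histone genes (filled, coloured by class) and the 26 probe sets shared by histone genes (open). The shared sets lie at the bright end and slightly below 0, except those of H4c17 with H4c11 and of H2bc6 with H1f4, which are dimmer; H2ac4 and H2bc3 are the lowest of the 30 and H1f2 the highest. The x axis also carries each probe set's own affinity.

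As over all genes, most of the lower calls came from bright probe sets. Of the 17 histone genes above the median level of all genes (7.70) 11 were lower and 1 higher in CD69-activated cells than in wild type, with a median difference of -0.23. Of the 13 below it 3 were lower and 1 higher, with a median of -0.08. Over all genes 24.6% were lower above that level and 2.80% below it, and the medians were -0.0258 and 0.0376.

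Set directly against each other, CD69-activated and CD69-/- cells differed in 17 histone genes: 11 were lower and 6 higher in CD69-activated cells, where 21.0% of all genes were lower and 21.6% higher. The share of higher calls is close to that of all genes. Above the median level of all genes, 9 of the 17 histone genes were lower and 4 higher. Over all genes above it, 3787 of 9969 were lower and 1962 higher. The lower genes were led by H2ac4 at -1.32 ± 0.0906 (limma, adjusted p = 1.03e-06) and H2bc3 at -0.87 ± 0.0432 (limma, adjusted p = 1.02e-07). H1f2 led the higher ones at 0.78 ± 0.0574 (limma, adjusted p = 1.66e-06; 1.72-fold). The other higher genes were H1f7 (0.33), H1f3 (0.27), H2bc21 (0.22), H4c9 (0.21) and H2bc4 (0.12), given here after their values were seen. H2bc21 is a replication-independent H2B gene known from olfactory neurons of the mouse.

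Genes that serve histone supply were read from lists. Of 35 measured genes for histone gene transcription and histone messenger processing, 12 were lower in CD69-activated cells than in wild type. There 2 were higher and 21 were not called (median of the 35 -0.06). Over all genes 13.7% were lower and 10.1% higher, and 24.6% of those above the median level were lower. The lower genes of the list were led by Ccne2 (-0.84) and Ccne1 (-0.60), the E cyclins whose kinase activates NPAT. Next came E2f1 (-0.54), an S phase transcription factor, and Cpsf2 (-0.42), a subunit of the complex that cleaves histone messengers. Slbp, the stem-loop binding protein, had 9.69, 9.69 and 9.69 in CD69-activated arrays, 10.13, 10.24 and 10.13 in CD69-/- arrays and 10.10, 10.10 and 10.08 in wild-type arrays, and was lower in the CD69-activated group by -0.40 (limma, adjusted p = 2.96e-05). Npat (-0.21, adjusted p = 0.00419) and Casp8ap2 (-0.23, adjusted p = 0.00239), which encodes its partner FLASH, were lower as well by limma. These last 3 fall outside the naming rule and were chosen for their role.

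Of 24 measured histone chaperones 12 were lower and 2 higher in CD69-activated cells (median -0.17). The leading ones were Asf1b (-0.87), which hands H3 and H4 to the assembly factors, Hat1 (-0.62), which acetylates new H4, Nasp (-0.54), which holds the H3 and H4 reserve, and Anp32e (-0.52), which removes H2A.Z. Of 11 measured variant histones and others outside the replication-dependent set 4 were lower and none higher (none at an unadjusted p under 0.05 either): H2az1 (-0.26), H2ax (-0.24), Macroh2a1 (-0.21) and Macroh2a2 (-0.18). That list holds H1f10, which is also among the 30. For the chaperones and the variants alike, the shares over all genes were 13.7% lower and 10.1% higher. Of the genes above the median level 24.6% were lower.

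Genes of DNA synthesis and of mitosis were lower together with the histone genes. Over all genes 13.7% were lower in CD69-activated cells than in wild type, and 24.6% of those above the median level. In CD69-activated cells 24 of 29 DNA synthesis genes were lower than in wild type and none was higher, with a median of -0.46, led by Rrm2 (-1.35), Uhrf1 (-1.11), Tyms (-0.84) and Pole (-0.76). All 23 measured mitosis genes were lower, with a median of -0.80, led by Nusap1 (-1.39), Kif11 (-1.25), Top2a (-1.21) and Bub1 (-1.20). In these 2 lists no gene was higher at an unadjusted p under 0.05 by limma. These values stand beside -0.14 for the 30 histone genes and -0.29 for the 26 shared probe sets; the sizes come from different probe sets, and the differences between the lists were not tested.

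**Figure D4:**
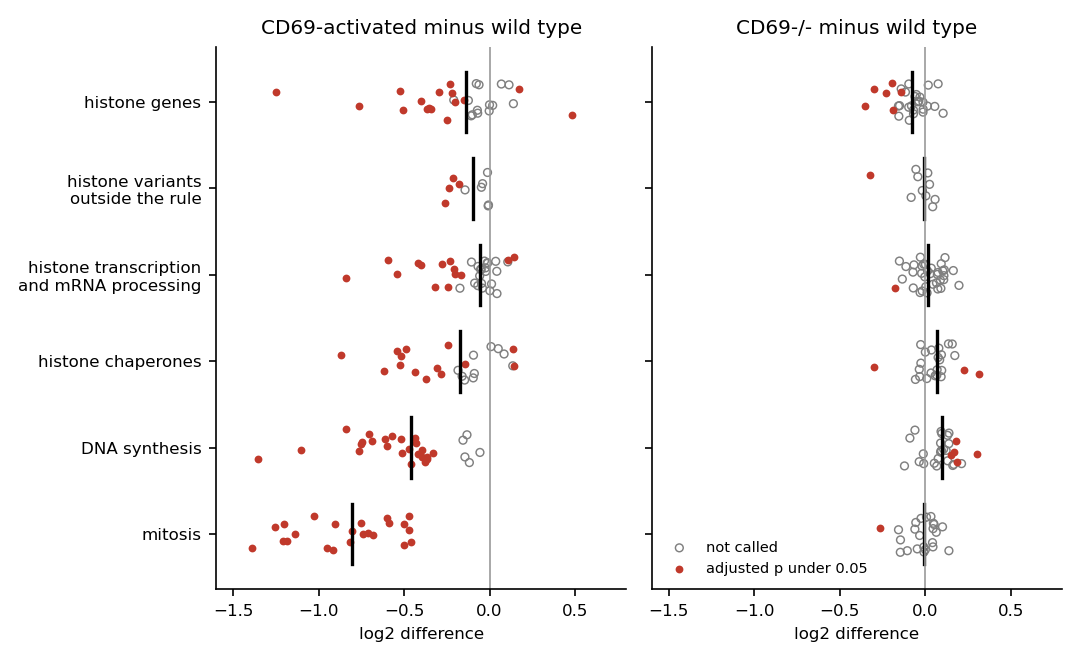
Log2 differences from wild type of single genes in CD69-activated cells (left) and CD69-/- cells (right) for the 30 histone genes and 5 gene lists (H1f10 is drawn with the histone genes only); filled points passed the test at an adjusted p under 0.05, and bars are medians. In the left panel the median of the mitosis genes, -0.80, is the lowest; in the right panel medians lie between the histone genes at -0.07 and the DNA synthesis genes at 0.10.

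In CD69-/- cells, where B cell markers were lower and T cell markers higher, few genes of these lists were called. Over all genes 6.78% were lower and 8.36% higher there. Of the 9969 genes above the median level 1504 were higher and 915 lower. Of the DNA synthesis genes 5 were higher and none lower than in wild type (1 lower at an unadjusted p under 0.05 by limma; median 0.10), with Prim1 (0.30), Orc1 (0.19), Mcm5 (0.18) and Rfc4 (0.17) leading. The count was 11 higher with each array centred on its median, and 5 higher and 2 lower with cyclic loess. Of the chaperones Chaf1b (0.31) and Tonsl (0.22) were higher and Nap1l1 (-0.30) was lower. The remaining calls were Cenpa (-0.32), the centromere H3, and H1f10 among the variants, Tut4 (-0.18) in the messenger list and Aurkb (-0.27) among mitosis genes. Over all genes, centring each array on its median changed the split in this comparison to 2555 higher and 1071 lower, against 1667 and 1351 as deposited; 4 of the 6 histone genes stayed lower.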

How the data were processed

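RNA of 9 cultures was hybridised to 1-colour Affymetrix mouse gene arrays after whole-transcript labelling, per the labels' protocols. The authors deposited log2 values from RMA; the submitters' processing notes name R 2.12.1 and its package oligo, and the settings are not stated there. RMA ordinarily quantile-normalizes the arrays and compresses large fold changes, and it gives no detection call. The number of arrays limits the precision: the median standard error of the 30 log2 differences was 0.0567.

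Of 35556 probe sets 21789 had 1 symbol in the platform annotation, 1621 several and 12146 none; the brightest probe set stood for each of 19938 genes. A two-sided limma test (version 3.58.1, R 4.3.3) with 3 group means and eBayes with no trend was run on the values without further scaling, at 6 residual degrees of freedom and a prior of 4.78. On simulated data with 19938 genes and independent normal noise, 200 genes were changed, 50 at each size of change. For CD69-activated minus wild type the fit called 58% of genes changed 1.2-fold and 94% of those changed 1.5-fold. For CD69-/- minus wild type it called 62% and 92%. In the data 2727 genes were lower and 2015 higher in the first comparison, so these shares describe the simulated setting only.

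The members and lists were chosen with earlier results of these data known. Named genes were, per class, the 3 largest called differences in CD69-activated cells and the brightest and dimmest member, all called in CD69-/- cells, and up to 4 per pathway list and comparison. Marker lists of plasma cells (3 of 6 lower in each comparison with wild type, and 1 higher in CD69-/- cells) and of neutrophils and mast cells (1 higher in each, 2 of 12 lower in CD69-/- and 3 of 12 in CD69-activated cells) were also read. Replicate numbers were not used to pair the arrays in the main fit. Promoters come from RefSeq windows and were searched on both strands. Protein sequences were not used here. Alternatives were normalization, dim-gene filter, probe set choice, arrays in the fit, variance prior, array weights, replicate block, a 1.5-fold minimum and leaving out each array.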

Additional observations from a re-analysis of the deposited data

How the results depend on the processing

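No histone count changed direction under any alternative. With a minimum of 1.5-fold added, the lower calls were 2 for CD69-activated minus wild type and 2 for CD69-activated minus CD69-/- (H2ac4 and H2bc3 in both) and 0 for CD69-/- minus wild type, and the higher calls were 0, 1 (H1f2) and 0, since the differences are small. The 2 higher genes in CD69-activated minus wild type became 1 with cyclic loess and 1 in the fit of all probe sets (added after seeing the data); the cause was not tested. Leaving out each array in turn gave 1 to 3 higher and 13 to 15 lower for CD69-activated minus wild type, 4 to 6 lower for CD69-/- minus wild type, and 4 to 7 higher and 10 to 13 lower for CD69-activated minus CD69-/-. The other settings without a fold minimum gave 13 to 16, 4 to 7 and 10 to 13 lower in the same order of comparisons. The median of the 30 in CD69-activated minus wild type ran from -0.21 (without the dimmest 0.25 of genes, where fewer dim members are counted) to -0.13, and in CD69-/- minus wild type from -0.12 to -0.04. Of the named genes called in CD69-activated minus wild type, 12 of 13 kept their call under all 19 settings without a fold minimum, and H3c4 did not.

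Replicate numbers are shared between groups. The mean of its group was subtracted from each gene's values, and arrays of different groups were then correlated. Same-numbered arrays gave -0.24 to 0.14 (9 pairs) and others -0.14 to 0.20 (18 pairs). These correlations show no pairing by number, but with so few arrays in a group they cannot exclude it. With the replicate number as a block, 13 histone genes were lower and 2 higher in CD69-activated minus wild type, 4 lower and 0 higher in CD69-/- minus wild type, and 10 lower and 6 higher in CD69-activated minus CD69-/-.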
